A study of Mus musculus with 7 samples.

Results

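Cfap46, Iqcg, Dnah7b, Ttll3, Foxj1, Tppp3 and Rsph1 are 7 genes of motile cilia, described here in RNA-seq of mouse ovarian stroma. All 7 were found among the 52230 genes of the files, and all 7 passed the filter on low counts that left 19233 genes for testing. The tissue was granulosa cell-depleted ovary, that is, the residual ovary after the follicles had been punctured, so it also held theca, vascular, immune and surface cells and the oocytes and follicle cells left behind. All mice were of the PRKO line (Pgrtm1Bwo), 21 to 27 days old, primed with 5 IU PMSG for 44 h and collected 8 h after 5 IU hCG. The 4 WT libraries (replicates 1 to 4) came from PGR +/+ mice and the 3 KO libraries (replicates 2 to 4) from PGR -/- littermates, and each library pooled 3 mice. The gene is disrupted in every cell of the KO mice, so effects in the stroma itself and effects of other tissues on it cannot be told apart. Cfap46, Iqcg, Dnah7b and Ttll3 were chosen because the study listed them as differing between KO and WT in these same libraries, and Foxj1, Tppp3 and Rsph1 because they mark multiciliated cells. The KO and WT values of all 7 genes are therefore a description and carry no test. In bulk tissue, fewer cells of a type and less RNA per cell cannot be told apart.

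A motile cilium is built on the axoneme, a ring of outer microtubule doublets around a central pair, which is moved by dynein arms and steadied by radial spokes and by the nexin-dynein regulatory complex. Cfap46 belongs to the central apparatus, Iqcg is a subunit of the nexin-dynein regulatory complex, Dnah7b is an inner-arm dynein heavy chain, Rsph1 is a protein of the radial spoke head, Ttll3 adds glycine to tubulin, Tppp3 binds and bundles microtubules, and Foxj1 is the transcription factor that drives the motile cilium programme. In the female tract such cells line the oviduct, beside secretory cells that make oviductin (Ovgp1). Most cells of the ovary carry only a single non-motile primary cilium, which shares the intraflagellar transport machinery but lacks the motility parts.

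The question asked of Cfap46 and Iqcg was whether they differed over the whole gene or in single transcripts, so the parts of sequence by which their transcripts differ are shown first. All are from GRCm39, read 5′ to 3′ on the minus strand, on which both genes lie. Cfap46 (ENSMUSG00000049571.19, chr7:139180867-139263733) has a full-length coding transcript, Cfap46-202, of 8180 bases in 59 exons. Cfap46-201, annotated as a retained intron, is 1518 bases long in 15 exons and begins 36 bases before exon 45 of Cfap46-202. Those 36 bases (chr7:139196190-139196225) are the only ones of its exons that Cfap46-202 lacks. They are in capitals below, after the 250 bases that precede them (chr7:139196190-139196475). Cfap46-209, a coding transcript of 849 bases, continues exon 56 of Cfap46-202 by 49 bases (chr7:139183743-139183791), which are in capitals after the last 30 bases of that exon.
Cfap46-201 start: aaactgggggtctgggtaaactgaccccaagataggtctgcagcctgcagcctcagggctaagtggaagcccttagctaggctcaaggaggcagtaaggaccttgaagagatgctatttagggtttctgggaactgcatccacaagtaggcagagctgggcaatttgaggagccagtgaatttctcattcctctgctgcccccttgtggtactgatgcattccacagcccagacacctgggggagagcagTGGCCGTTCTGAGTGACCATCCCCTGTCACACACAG
Cfap46-209 extension: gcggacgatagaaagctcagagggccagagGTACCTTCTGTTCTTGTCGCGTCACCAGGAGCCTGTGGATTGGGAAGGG

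Iqcg (ENSMUSG00000035578.18, chr16:32833053-32876799) has a full-length coding transcript, Iqcg-202, of 5618 bases in the files and 5857 bases in the later annotation used here. Iqcg-205, of 1252 bases and with no coding sequence assigned, lies wholly within the exons of Iqcg-202 but skips exon 8, 75 bases long (chr16:32849385-32849459). That exon is in capitals between the neighbouring bases of exons 7 and 9, and the junction of Iqcg-205 follows. Iqcg-204, of 442 bases, starts in an exon of its own of 94 bases (chr16:32844214-32844307), in capitals before the start of the next exon.
Iqcg-202 junctions: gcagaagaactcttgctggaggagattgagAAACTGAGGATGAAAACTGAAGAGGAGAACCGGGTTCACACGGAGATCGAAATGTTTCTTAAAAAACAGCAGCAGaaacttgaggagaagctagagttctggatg
Iqcg-205 junction: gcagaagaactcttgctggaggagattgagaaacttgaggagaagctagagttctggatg
Iqcg-204 first exon: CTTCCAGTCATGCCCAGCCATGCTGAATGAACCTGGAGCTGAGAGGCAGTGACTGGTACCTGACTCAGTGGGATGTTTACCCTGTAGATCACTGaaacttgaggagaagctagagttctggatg

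These stretches are short. Of the bases of Cfap46-201, 97.6% are also in Cfap46-202, and of Iqcg-205 every base is, so most reads of a short transcript could equally have come from the long one. Salmon, the program that made the files, divides such reads between transcripts by estimation, and a value of 0 for a transcript is an estimate and not a count of no reads. The window from 250 bases before to 50 bases after the start of Cfap46-201 was searched on both strands for AGAACA, the half-site bound by progesterone receptor, and for ACANNNTGT, the spaced pair of its inner bases, which reads the same on both strands. Neither was found. The half-site was in 19.0% and the spaced pair in 6.8% of 32851 RefSeq promoter windows of the same length (mouse GRCm38.p6).

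Libraries held 47372446 to 63416875 estimated reads. Pgr itself, the gene disrupted in PRKO mice, was at 19.5, 31.0, 21.5 and 16.9 CPM in the WT libraries and at 6.13, 6.52 and 7.56 CPM in the KO libraries. CPM is the reads of a gene scaled to a common library total, with TMM factors. Every KO library was below every WT library, as the labels have it, although reads of the disrupted gene remained in all 3. The log2 fold change (logFC) was −1.72 ± 0.20 (SE, edgeR adjusted p = 0.0544, n = 4 WT and 3 KO). Tested with edgeR over all genes, 2 of 19233 (0.0104%) passed both an adjusted p of 0.05 and an absolute logFC of 0.5. The stromal and theca markers Tcf21, Cyp17a1 and Star were abundant in every library (89.95 to 1404 TPM), and so were the oocyte markers Zp2 and Zp3 (51.2 to 90.6 TPM), so stromal and oocyte RNA were both present. TPM is reads per base of effective transcript length, scaled to the same total in every library.

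Cfap46 was the gene with the largest difference among the 7. Its estimated reads were 58, 83, 192 and 112 in WT replicates 1 to 4 and 51, 29 and 43 in KO replicates 2 to 4. After scaling, WT was at 1.11, 1.65, 3.41 and 1.78 CPM and KO at 0.886, 0.604 and 0.742 CPM. All 3 KO libraries were below all 4 WT libraries, WT replicate 1 lay closest to them and WT replicate 3 was the highest. Over all genes tested, the groups did not overlap in 9.05%, with KO below WT in 5.12%. The KO mean of 0.744 ± 0.141 CPM (SD, n = 3) was 37.4% of the WT mean of 1.99 ± 0.988 CPM (SD, n = 4), and the logFC was −1.41 ± 0.37 (SE).

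Per length the difference was wider. Cfap46 was at 0.498, 0.940, 2.59 and 1.53 TPM in WT and at 0.191, 0.221 and 0.176 TPM in KO, so the KO mean was 14.1% of the WT mean. TPM was lower in KO without overlap in 2.01% of all genes tested. The scales parted through the transcript lengths, since the mean effective length assigned to Cfap46 was 2346 ± 594 bases (SD) in WT and 5829 ± 1540 bases in KO, 2.49-fold longer, with the short transcripts nearly empty in KO. A fit with these lengths as an offset gave a logFC of −2.85 ± 0.50 (SE), and one on protein-coding transcripts only gave −0.96 ± 0.42.

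**Figure D1:**
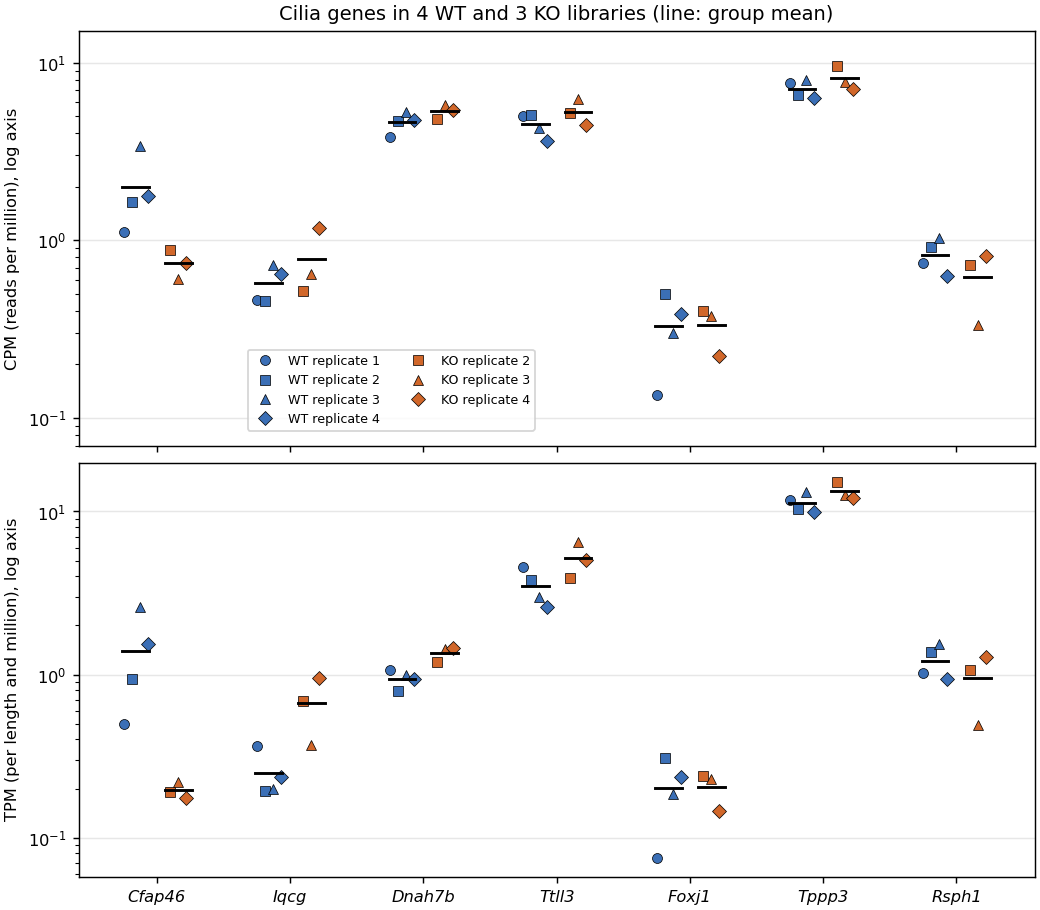
Level of the 7 cilia genes in each library, as CPM (top) and TPM (bottom), both on log axes, with WT in blue, KO in orange, 1 symbol per replicate number and a black line for the group mean. Cfap46 lies lower in every KO library on both scales, Iqcg is apart on the TPM scale only, and the groups of Foxj1, Tppp3 and Rsph1 overlap on both.

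By transcript, the difference was concentrated at the 3′ end of Cfap46. The transcripts Cfap46-201, Cfap46-208 and Cfap46-209, all of which lie in the last 15 exons, together held 18.6, 32.8, 82.8 and 52.7 reads in the WT libraries and 0, 4.98 and 0 in the KO libraries. That made 187 reads in 4 WT libraries against 4.98 in 3 KO libraries, and every WT library was above every KO library. Cfap46-201 had most of them, with 18.6 to 55.3 reads in every WT library and 4.98 in KO replicate 3 alone. Cfap46-209 was read in WT replicates 3 and 4 (27.5 and 21.8 reads) and listed at 0 in the other 5 libraries.

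The full-length transcript was lower too, but less so and with overlap. Cfap46-202 had 38.2, 49.1, 109 and 58.8 reads in WT and 49.8, 22.3 and 41.9 in KO. KO replicate 2 was above WT replicates 1 and 2 in reads, and the KO mean in CPM was 59.6% of the WT mean. As shares, Cfap46-202 held 58.7 ± 5.52% of the gene's reads in WT and 90.7 ± 11.8% in KO (SD), and Cfap46-201 held 30.8 ± 3.21% in WT and 5.72 ± 9.91% in KO. Of the difference in mean CPM of the gene, 63.9% lay in the 3′-end transcripts and 37.2% in Cfap46-202, and these sum to over the whole because other transcripts differed the other way. Of the difference in TPM, Cfap46-201 held 53.0%, Cfap46-209 held 40.1% and Cfap46-202 held 6.94%. Cfap46 thus differed both by transcript and, with overlap, in its full-length transcript, which held little of the difference in TPM. A transcript whose share of reads differed by at least 20 points, with the groups apart, was found in 0.723% of 13963 genes with enough reads, and of the 7 cilia genes in Cfap46 only.

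**Figure D2:**
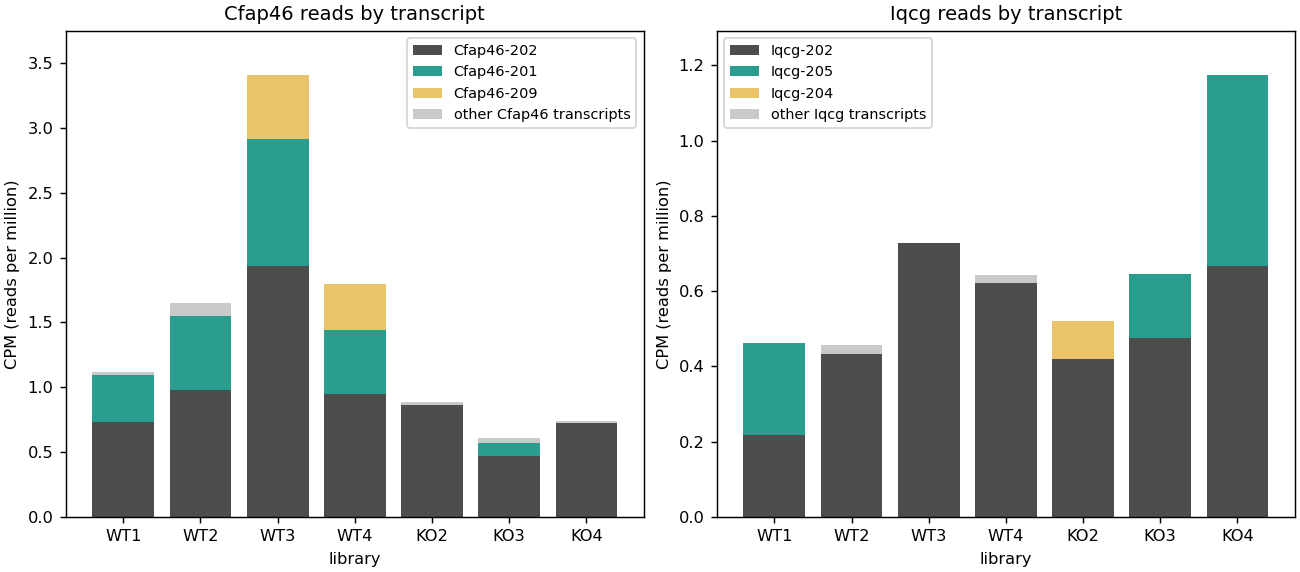
Scaled reads of Cfap46 (left) and Iqcg (right) in each library, stacked by transcript, with the full-length transcripts in dark grey. The 3′-end transcripts Cfap46-201 and Cfap46-209 fill the upper part of each WT bar and are nearly missing from KO, while Iqcg-205 is in WT replicate 1 and in KO replicates 3 and 4.

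Iqcg went the other way, and its groups overlapped in reads. It had 24, 23, 41 and 40 reads in WT and 30, 31 and 68 in KO. KO replicates 2 and 3 lay among the WT libraries, and KO replicate 4 stood above all. The means were 0.572 ± 0.135 CPM in WT and 0.780 ± 0.346 CPM in KO (SD), with a logFC of 0.44 ± 0.32 (SE), and without KO replicate 4 it was 0.02. In TPM, Iqcg was at 0.367, 0.194, 0.200 and 0.235 in WT and at 0.690, 0.369 and 0.952 in KO. KO was above WT without overlap, as in 6.11% of all genes tested, though KO replicate 3 (0.369) and WT replicate 1 (0.367) were nearly equal. With the length offset the logFC was 1.40 ± 0.36 (SE), and on protein-coding transcripts only it was 0.07 ± 0.39.

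The full-length transcript of Iqcg was level between the groups. Iqcg-202 had 11.3, 21.7, 41.0 and 38.6 reads in WT and 24.2, 22.8 and 38.7 in KO, and the KO mean in CPM was 104% of the WT mean. Iqcg-205 had 12.7 reads in WT replicate 1, 8.22 in KO replicate 3 and 29.4 in KO replicate 4, and was listed at 0 in the other 4 libraries. Iqcg-204 was read in KO replicate 2 alone, with 5.79 reads. Each KO library thus had 1 of the 2 short transcripts, WT replicate 1 had Iqcg-205 as well, and the groups overlapped in the sum of both. These 43.4 reads in KO and 12.7 in WT held 95.4% of the difference in CPM. Of the difference in TPM, Iqcg-205 held 60.3% and Iqcg-204 45.7%, against 2.23% for Iqcg-202. The share of Iqcg-204 rests on the 5.79 reads of this 442-base transcript in 1 library.

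Iqcg shares its place with other genes. The lncRNA Gm17106 lies over the whole of it on the same strand and had 18.6 to 45.2 reads, with the most in KO replicate 4, where Iqcg was also highest. On the opposite strand Lrch3 (2478 to 3224 reads) overlaps its 3′ end and the ribosomal protein gene Rpl35a (9532 to 13490 reads) its 5′ end. The libraries were stranded, but whether Salmon was set to use the strand is not given in the sources used here. The part of these neighbours in the reads of Iqcg was not tested. Cfap46 overlaps no other gene than the pseudogene Gm4459, which had 0 to 11.7 reads.

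**Figure D3:**
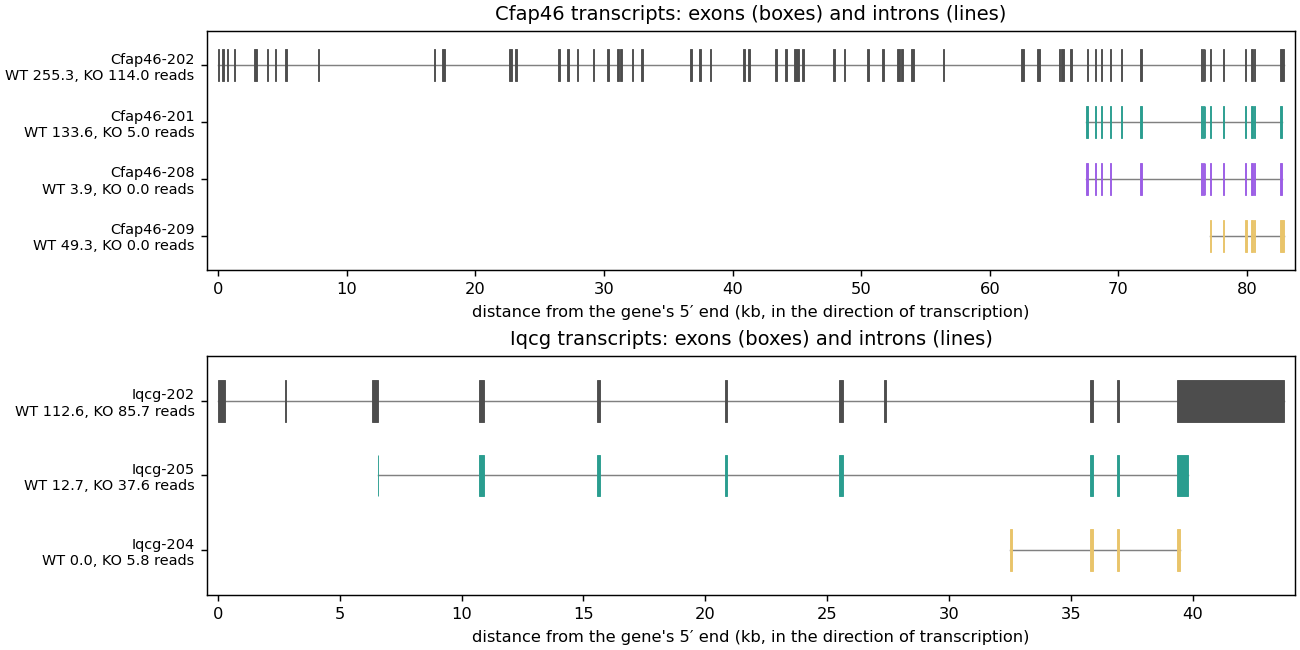
Exons (boxes) and introns (lines) of the Cfap46 and Iqcg transcripts described, by distance from the 5′ end of each gene in kb, with estimated reads summed over 4 WT and 3 KO libraries at the left. The short Cfap46 transcripts cover only its last exons, and Iqcg-205 and Iqcg-204 have nearly all their exons in common with Iqcg-202.

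Dnah7b (ENSMUSG00000041144.13, chr1:46105475-46412710, plus strand) had 199, 235, 296 and 296 reads in WT and 277, 277 and 315 in KO. WT replicate 1 was lowest and the groups overlapped in CPM, with means of 4.63 ± 0.592 in WT and 5.34 ± 0.487 in KO (SD) and a logFC of 0.21 ± 0.13 (SE). In TPM the KO libraries (1.19, 1.44 and 1.45) were above the WT libraries (1.07, 0.789, 0.988 and 0.942), as in 6.11% of all genes tested. Of that difference 74.8% lay in Dnah7b-203, a transcript of 740 bases annotated for nonsense-mediated decay, which had 11.1, 0, 0 and 2.77 reads in WT and 8.51, 7.31 and 12.3 in KO. Its full-length transcripts Dnah7b-201 and Dnah7b-207 share 99.3% of the bases of the first, and the reads went wholly to Dnah7b-207 in 5 libraries, wholly to Dnah7b-201 in WT replicate 4 and to both in KO replicate 4. Their sum was 161 to 261 reads in WT and 223 to 272 in KO. The sum was 260 reads in WT replicate 4 and 272 in KO replicate 4, the highest of the 7 libraries.

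Dnah7b has near-identical copies, Dnah7a and Dnah7c, between which reads could be split, so its own level is uncertain. Dnah7a had 7.12 to 26.8 reads and Dnah7c 36.6 to 83.3 reads. Summed over the 3 genes, WT was at 5.80 ± 0.748 CPM and KO at 6.93 ± 0.331 CPM (SD). Here KO was above WT without overlap, as in 3.93% of all genes tested, each taken singly. The gap was narrow, since KO replicate 2 (6.57 CPM) and WT replicate 3 (6.53 CPM) were nearly equal.

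Ttll3 (ENSMUSG00000030276.21, chr6:113366221-113391548, plus strand) had 261, 255, 242 and 226 reads in WT and 300.5, 298 and 259 in KO. The groups overlapped both in CPM (logFC 0.23 ± 0.16, SE) and in TPM. Ttll3-204, of 827 bases that are all also in Ttll3-203, had 43.6 reads in WT replicate 1, 43.5 in KO replicate 3 and 50.3 in KO replicate 4 and was listed at 0 elsewhere, and it held 58.1% of the difference in TPM. WT replicate 1 and KO replicates 3 and 4 were also the 3 libraries with Iqcg-205. The actin nucleation gene Arpc4, with 4833 to 7089 reads, overlaps the 5′ end of Ttll3 on the same strand, and Rpusd3, with 258 to 357 reads, lies over most of it on the other.

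In 4 of the 7 genes, then, the logFC moved by at least 0.25 when transcript lengths entered the fit: by −1.44 in Cfap46, 0.96 in Iqcg, 0.27 in Dnah7b and 0.28 in Ttll3. A shift of that size was seen in 2.88% of all genes tested, and the median absolute shift was 0.0113. The 4 genes were chosen on this contrast in these libraries, so their shifts beside that share are a description. In Foxj1, Tppp3 and Rsph1 the shift was at most 0.01 in size. Foxj1 has 1 transcript and all Rsph1 reads went to Rsph1-201, so lengths could hardly move either. Reads of all transcripts annotated as retained introns, Cfap46-201 among them, took 3.14% to 3.96% of the reads of a WT library and 3.44% to 4.37% of a KO library, with the groups overlapping.

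Foxj1 (ENSMUSG00000034227.9, chr11:116221530-116226225, minus strand) was barely read. It had 7, 25, 17 and 24 reads in WT and 23, 18 and 13 in KO. WT replicate 1 was lowest and WT replicate 2 highest, and their 95% Poisson intervals (2.81 to 14.4 and 16.2 to 36.9 reads, for counting error only) did not meet. In TPM it lay between 0.0749 and 0.309, with means of 0.202 ± 0.0984 in WT and 0.204 ± 0.0508 in KO (SD), and the logFC was 0.01 ± 0.41 (SE). At this depth and spread, a difference of the size of this standard error in either direction was not detectable, and larger ones could also go undetected.

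Rsph1 (chr17:31473993-31496378, minus strand) had 39, 46, 58 and 39 reads in WT and 42, 16 and 47 in KO. Only KO replicate 3 was low, and the logFC of −0.39 ± 0.31 (SE) was −0.10 without it. Tppp3 (chr8:106193662-106198158, minus strand) was the most abundant of the 7, at 9.91 to 13.2 TPM in WT and 12.1 to 15.3 TPM in KO, with a logFC of 0.20 ± 0.13 (SE) and overlapping groups. All Rsph1 reads were assigned to its coding transcript Rsph1-201, and Tppp3-201 took 80.0 ± 6.49% of Tppp3 reads in WT and 80.4 ± 4.39% in KO (SD).

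The order of the 7 genes by mean TPM in WT was Tppp3 (11.3), Ttll3 (3.48), Cfap46 (1.39), Rsph1 (1.22), Dnah7b (0.946), Iqcg (0.249) and Foxj1 (0.202). Cfap46, Rsph1 and Dnah7b did not differ beyond their spread, nor did Iqcg and Foxj1. In KO, Cfap46 was last at 0.196 ± 0.0229 TPM (SD), level with Foxj1.

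Whether Foxj1 came from oviduct attached to the ovaries was asked of the other genes of that tissue. Of 23 markers of multiciliated cells, 5 had a mean of at least 1 TPM, Cfap126 and Rsph1 among them. At the other end, 10 of the 23 markers of these cells had a mean below 0.1 TPM. The filter on low counts was not passed by 12. Dynlrb2, Ccdc153 and Capsl, usually abundant in such cells, had 0 to 6 reads in a library, Sntn had 1 read in KO replicate 4 alone and Cdhr3 had 1 read in WT replicate 4 alone. Mlf1 (8.74 to 19.3 TPM) and Tppp3 held most of the summed level of the list, which was 28.6 to 37.3 TPM in WT and 35.4 to 40.1 TPM in KO. The markers were not highest in the same library: between 2 and 5 of the 23 peaked in each of the 7. For markers with few reads, such as Sntn and Cdhr3 with 1 read each, counting error alone could set the highest library. Whether the markers varied together was not tested.

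**Figure D4:**
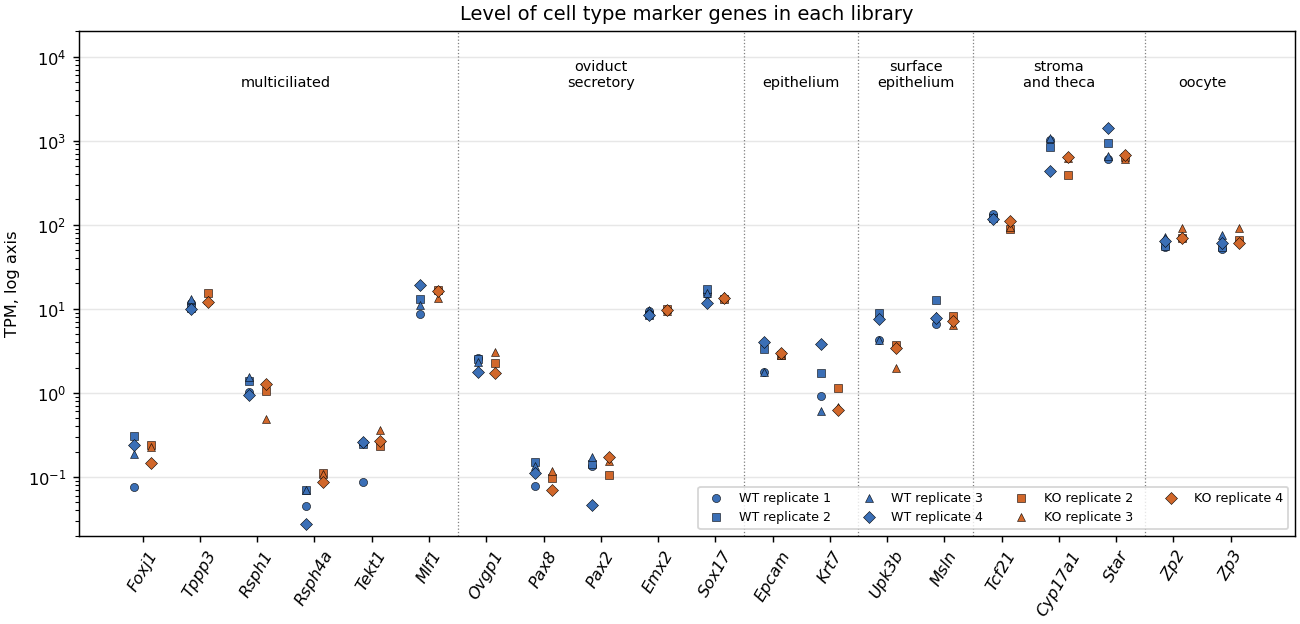
TPM of marker genes in each library on a log axis, grouped by cell type, with WT in blue and KO in orange. Foxj1 and Pax8 lie at 0.0692 to 0.309 TPM, stromal and theca markers up to 1404 TPM, and Upk3b is the marker shown with all KO libraries below all WT libraries beside Tcf21.

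Secretory cells of the oviduct were followed with 6 markers. Ovgp1 was at 2.63, 2.55, 2.36 and 1.75 TPM in WT and at 2.29, 3.05 and 1.74 TPM in KO. Pax8 was at 0.0769, 0.152, 0.134 and 0.112 TPM in WT and at 0.0960, 0.117 and 0.0692 TPM in KO. Among the WT libraries Foxj1 was lowest in replicate 1, where Ovgp1 was highest. Pax8, in contrast, was highest in WT replicate 2 and lowest of its group in WT replicate 1 and KO replicate 4, as Foxj1 was, so these secretory markers differed in whether they followed Foxj1. Pax2 (0.0461 to 0.174 TPM) and Wfdc2 (0.109 to 0.293 TPM) were as low as Pax8. Sox17 (11.6 to 17.2 TPM) and Emx2 (mean 9.31 TPM) were higher, and both are also known outside the oviduct, Sox17 in endothelium and Emx2 in the gonad. None of the 5 tested had an unadjusted p under 0.05 in edgeR (all genes: 8.94%), their logFC lay between −0.36 and 0.15, and the median was 0.05 against −0.001 for all genes tested.

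Markers of the ovarian surface epithelium moved more between libraries. Upk3b was at 4.22, 8.91, 4.24 and 7.54 TPM in WT and at 3.70, 1.96 and 3.45 TPM in KO. It was lower in KO without overlap, as TPM was in 2.01% of all genes tested (logFC −1.07 ± 0.30, SE, edgeR adjusted p = 0.342, DESeq2 adjusted p = 0.0155). The summed level of the 8 surface markers was at most 68.9 TPM in WT and at most 52.2 TPM in KO. The 2 WT libraries that were highest in it, replicates 2 and 4, were also the 2 WT libraries highest in Foxj1. Among the KO libraries replicate 2 was highest in both. But KO replicate 3 was lowest in the sum (36.8 TPM), while KO replicate 4 was lowest in Foxj1 (0.146 TPM). Among the general epithelial markers, Epcam (1.76 to 4.08 TPM) and Krt7 (0.609 to 3.83 TPM) were highest in WT replicate 4. Whether Foxj1 reads came from surface cells, oviduct or another source was not tested.

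The 5 genes whose log2 CPM followed Foxj1 most closely over the 7 libraries were Ninl (Pearson r = 0.977), Gm47842, Esd, Or5b106 and Tmod1. For Cfap46 they were Cetn4, a centrin of centrioles (r = 0.965), Acaa2, Tspan13, Neurl1b and Swsap1, and for Iqcg Fip1l1 (r = 0.982), Kiz, Mex3c, Msh6 and Prpf6. These are the highest of about 14884 correlations each over 7 libraries that share their depth and tissue makeup, so they are a description. None of the 15 is on any of the lists of cilia or cell type genes used here.

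The other genes of the motile cilium were then taken as a whole, in 8 lists with 113 genes, of which 106 are not among the 7 and 79 of those could be tested. None was called in edgeR or in DESeq2, where 0.829% of all genes with an adjusted p were. At an unadjusted p under 0.05, edgeR had 12 genes higher and 1 lower in KO. That is 16.5% of the 79, against 8.94% of all genes, with 15.2% against 3.84% for the higher ones and 5.1% of all genes lower. The median logFC was 0.08, against −0.001 for all genes. In 13 of the 79, KO CPM was above WT without overlap and in 0 below, against 3.93% above and 5.12% below of all genes tested. The lists were chosen with earlier results of these data known, so these counts beside the shares of all genes are a description. The count at an unadjusted p under 0.05 varied with the library left out. It was 7 without WT replicate 1, 7 without WT replicate 2, 5 without KO replicate 2 and 7 without KO replicate 3. It was 12 without WT replicate 3, 10 without WT replicate 4 and 12 without KO replicate 4, and 8 with the replicate number as a block. The share of all genes at that p in these fits is not given, so the lower counts cannot be set against it.

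Dynein heavy chains had the most, with 4 of 12. Dnah10 was at 2.27 ± 0.606 CPM in WT and 3.51 ± 0.0100 in KO (SD; logFC 0.63 ± 0.20, SE; adjusted p = 0.385), Dnah17 had a logFC of 0.52 ± 0.16 (adjusted p = 0.372) and Dnah11 one of 0.60 ± 0.20 (adjusted p = 0.414), all by edgeR. Dnah10 encodes an inner-arm and Dnah11 and Dnah17 outer-arm heavy chains. Dnah8 (mean 1.42 TPM, logFC 0.08 ± 0.15) and Dnah1 (0.793 TPM, logFC 0.05 ± 0.15) were the most abundant of this list beside Dnah7b.

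In the nexin-dynein regulatory complex, where Iqcg belongs, 2 of 8 had such a p: Iqca1 (logFC 0.47 ± 0.18, SE) and Efcab2 (0.33 ± 0.14). Gas8, by far its most abundant member at 17.6 to 20.9 TPM, had a logFC of 0.06 ± 0.08, Drc3 one of 0.14 ± 0.23 and Drc1 one of 0.44 ± 0.31. In the central pair, where Cfap46 belongs, 1 of 8 had one, Cfap74 (0.43 ± 0.18), and this was higher in KO, opposite to Cfap46. Spef1 (mean 9.13 TPM, logFC −0.09 ± 0.16), Cfap69 (6.02 TPM, 0.01 ± 0.16), Cfap54 (−0.22 ± 0.17) and Cfap70 (0.39 ± 0.32) did not reach it.

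Radial spoke genes had 2 of 10, Rsph9 (logFC 0.40 ± 0.15, SE) and Rsph4a (0.91 ± 0.36, from 4.00 to 15.1 reads a library), both higher in KO while their partner Rsph1 was not. The most abundant of this list, Rsph3a (35.0 TPM), Rsph3b (16.4 TPM) and Cfap251 (6.59 TPM), had logFC of 0.07, −0.00 and −0.05. Among the 12 factors that assemble dyneins or set the length of the axonemal repeat, Cfap300 (0.51 ± 0.13, edgeR adjusted p = 0.314) and Ccdc40 (0.66 ± 0.28) were higher and Spag1 (−0.31 ± 0.12) was lower at an unadjusted p under 0.05, and Cfap298 and Dnaaf5 were at 0.01 and −0.03. Tubulin-modifying genes, the list of Ttll3 and Tppp3, had 0 of 15 at that p in edgeR and a median logFC of 0.06. Dynein intermediate and light chains and docking factors had 0 of 6, with Odad1 at 0.24 ± 0.14 and Dnal1 at 0.04 ± 0.06.

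Of the regulators that switch on multiciliation, Foxj1 among them, 1 of 8 had an unadjusted p under 0.05, Ccno (logFC 0.35 ± 0.15, SE), at a mean of 15.1 TPM. Mcidas, another regulator on this list, was listed at 0 in every library, as were Rsph14 and Tcte1 of other lists. E2f4 (54.4 TPM, −0.06 ± 0.05) and E2f5 (21.3 TPM, 0.15 ± 0.08) were abundant and are used by many cells. Of the multiciliated markers that are not among the 7, 1 of 8 had such a p in edgeR, Rsph4a, and the median logFC of the 8 was 0.12.

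Beside these counts, markers of other cells were followed in the same libraries, in lists also chosen with earlier results known. Of 9 oocyte genes, 5 (55.6%) were higher in KO at an unadjusted p under 0.05 in edgeR, against 3.84% of all genes. They were led by Nlrp5 (logFC 0.42 ± 0.13, SE), Oosp1 and Padi6, and the list had a median logFC of 0.29. The summed level of the 9 was 302 to 430 TPM in WT and 402 to 549 TPM in KO, highest in KO replicate 3. The most abundant oocyte gene, Padi6, was at 62.9 to 120.3 TPM. Of 11 stroma, theca and vessel genes, 4 (36.4%) were lower in KO at that p, against 5.1% of all genes. These were Tcf21 (−0.39 ± 0.09), Star, Cdh5 and Acta2. The list had a median of −0.20 and a summed level of 4199 to 4858 TPM in WT and 3219 to 4021 TPM in KO, without overlap. The part of these differences in the levels of the cilia genes was not tested.

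**Figure D5:**
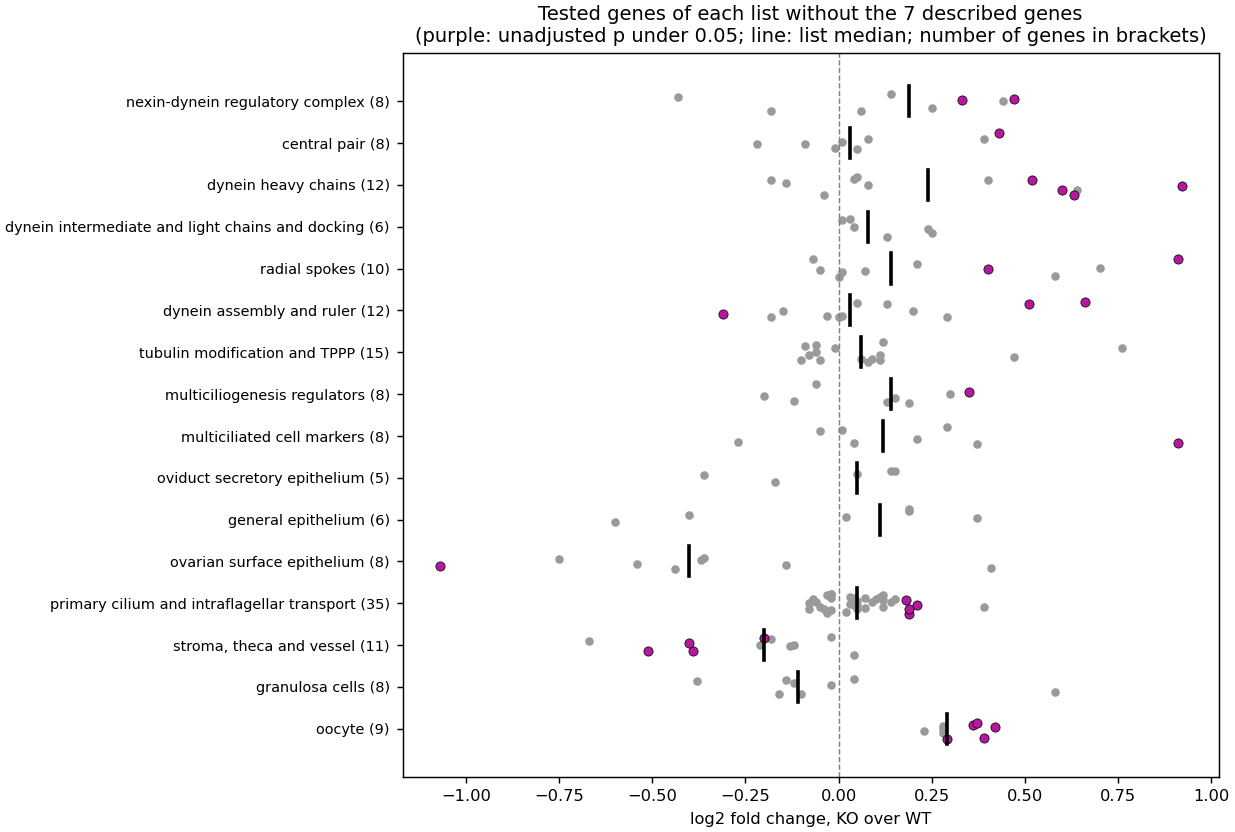
The logFC (KO over WT) of each tested gene in the 16 lists, without the 7 genes described, with purple points for an unadjusted edgeR p under 0.05 and a black line for the list median. The purple points of the motile cilium lists lie to the right except Spag1, as do those of the oocyte list, while those of the stroma list and Upk3b lie to the left.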

How the data were processed

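Stranded mRNA libraries of 7 pools of granulosa cell-depleted ovary were sequenced (paired-end, 100 bp). The authors deposited per-transcript files made with Salmon (version not given in the sources used here) against GENCODE M26 on GRCm39, per the labels and the published methods: expected counts, TPM and effective lengths. The annotation used here was GENCODE M39 on GRCm39; 137570 of 139225 transcripts (98.8%) matched, with over 99.37% of reads of each library. RefSeq promoters are of GRCm38.p6.

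Expected counts were summed per gene, rounded and tested with edgeR 4.0.16 in R 4.3.3 (TMM, filterByExpr, quasi-likelihood test, two-sided, Benjamini-Hochberg over 19233 genes). Calls needed both an adjusted p of 0.05 or less and an absolute logFC of 0.5 or more. DESeq2 1.42.0, which the study used, was an alternative, as were other size factors, filters, a length offset, coding transcripts only, a replicate block and leaving out each library. The code was tested on simulated data. Replicates differed by more than sampling noise, and p-values measure the spread between pools.

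The members and lists were chosen with earlier results of these data known. Named were the 7 genes, their transcripts with at least 10% of the reads, Dnah7a and Dnah7c, overlapping genes, oviduct secretory markers, genes of each list with the 3 lowest p or 3 highest mean TPM, and 5 genes most alike (mean of at least 1 CPM). Dynlrb2, Ccdc153, Capsl, Sntn, Cdhr3, Mcidas, Rsph14 and Tcte1 were named after their values were seen.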

Additional observations from a re-analysis of the deposited data

Results flagged for a closer look

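In 29 sets of 4 WT values (CPM and TPM of the 7 genes and shares of their transcripts), 5 had 1 library apart from the other 3 by Dixon's criterion. For normally distributed values chance gives about 1 in 20. Iqcg-205, Dnah7b-201 and Ttll3-204 were listed at 0 in the other WT libraries, where any value stands apart, so that rate does not hold for them. All 5 are transcript shares, and the 5 are not independent, since shares of 1 gene sum to the whole. Iqcg-202 held 46.95% of the gene's reads in WT replicate 1, the lowest WT library, and Iqcg-205 held 53.05% there, the highest. Ttll3-204 held 16.68% of Ttll3 reads in WT replicate 1 and none in the other WT libraries. Dnah7b-201 held 87.9% of Dnah7b reads in WT replicate 4, the highest, and Dnah7b-207 held 0% there, the lowest.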

How the results depend on the processing

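Under other settings, 296 recomputed values stayed within the spread between replicates or the limit set for counts, 11 values moved further and 11 counts were lower. The count of motile cilium genes at an unadjusted p under 0.05 was 13, was 8 with a replicate block, and ranged from 5 to 12 when 1 library was left out. For multiciliated markers it was 1, and 0 with DESeq2, with at least 10 counts in every library, and with the replicate block, and 0 to 1 when 1 library was left out. No motile cilium gene beside the 7 was called under any setting run. The length offset moved the logFC of Cfap46 to −2.85, Iqcg to 1.40, Dnah7b to 0.47 and Ttll3 to 0.51. As shares of TPM in place of reads, the KO minus WT difference was 50.2 points for Cfap46-202, −38.0 for Cfap46-201, −38.3 for Iqcg-202 and −3.3 for Dnah7b-204. The log2 ratio of Cfap46-201 was −1.04 with 0.5 CPM added, −2.38 with 0.1 and −0.35 with 2, and that of Iqcg-205 was 0.37, and 1.02 with 0.1. The logFC of Foxj1 (−0.26 to 0.25) and the median of the oviduct secretory markers (−0.20 to 0.15) changed sign between settings, within their spread. The replicate numbers were not taken to pair the samples in the main fit. Same-numbered libraries deviated with r of −0.026, 0.097 and 0.073. KO replicates 3 and 4 correlated best with their own number and KO replicate 2 did not, and values of r this small cannot settle whether the samples were paired. Few reads limit Foxj1, Iqcg and the short transcripts most.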

Other observations

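The primary cilium was unlike the motile one in level. All 35 genes of the list of primary cilium and intraflagellar transport were tested and all had a mean of at least 1 TPM, led by Ift20 (86.7 to 98.8 TPM), Ift46 and Ift43. Of them 4 (11.4%) had an unadjusted p under 0.05 in edgeR, near the 8.94% of all genes in either direction. All 4 were higher in KO, against 3.84% of all genes at that p. As in the motile cilium lists, KO CPM was more often above WT than below. It was above without overlap in 6 of the 35 and below in 1, against 3.93% and 5.12% of all genes tested. Among them were Cep164 (logFC 0.19 ± 0.06, SE), Kif3a (0.18 ± 0.06) and Wdr19 (0.21 ± 0.09), and the median logFC of the list was 0.05. Of 106 motile cilium genes 27 were not tested, since they had too few reads.

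Of 8 granulosa genes 0 had an unadjusted p under 0.05 in edgeR, with a median logFC of −0.11, and their summed level overlapped between WT (510.2 to 677 TPM) and KO (472 to 735 TPM), so granulosa RNA remained in every library. Of 6 general epithelial genes 0 had one as well (edgeR), with a median of 0.11 and Krt7 at −0.60 ± 0.42 (SE). Of 8 surface epithelial genes 1 had one, Upk3b (all genes: 8.94%), and the median was −0.40. None of the genes of these primary cilium, granulosa and epithelial lists was called in edgeR, and Upk3b was called in DESeq2 (adjusted p = 0.0155).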
